A study of Mus musculus with 12 samples.

Results

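The comparison described here sets liver from exercised mice on a high-fat diet against liver from sedentary mice on the same diet. Its 9 libraries, of 12 in the series, are the 6 exercise libraries (HFD+AE 1, 2 and 3 and HFD+RE 3, 4 and 5) and the 3 sedentary ones (HFD 1, 2 and 3), chosen by their labels alone. All mice were C57BL/6 males, an inbred laboratory strain, that entered the study at 6 weeks of age, and RNA was sequenced from whole liver. The HFD, HFD+AE and HFD+RE mice all ate a purified high-fat diet (D12492), 8 weeks of it before exercise began, and the study groups held 8 mice each. Exercise lasted at least 12 weeks on the diet. The labels do not spell out AE and RE; aerobic and resistance training are the common readings. Mice on a normal diet (NC 2, 4 and 5) serve only as a reference level, and they enter the fit. Whether each library stands for its own mouse is not stated in the sources used here, and p-values therefore describe the scatter among these libraries, possibly only technical.

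A long high-fat diet fills hepatocytes with triglyceride, stored in lipid droplets whose size is set by coat and fusion proteins of the perilipin and CIDE families. Mouse liver also differs strongly between the sexes: pulses of growth hormone keep a set of male-biased genes on, among them steroid-metabolising enzymes and the major urinary proteins (Mups), small secreted carriers of pheromones. Liver tissue holds Kupffer cells, endothelial cells and, in fatty liver, recruited leukocytes beside the hepatocytes, and a bulk library mixes the RNA of them all. Fewer cells of a type and less RNA per cell cannot be told apart in such samples.

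The 9 libraries held 44373214 to 65434486 counts in genes. Hepatocyte markers dominated every library, with a summed level for 10 genes of 71900 to 106000 CPM (counts relative to the scaled library total) in HFD, 130000 to 148000 CPM in HFD+AE and 106000 to 138000 CPM in HFD+RE. The libraries did not fall cleanly into their groups. On the first principal component (42.4% of the variance of log2 CPM over the 9 libraries) HFD+AE 1, HFD+AE 2 and HFD+RE 3 scored 61.6, 62.3 and 59.9, while HFD+AE 3 scored 14.2 and HFD+RE 4 and 5 scored -27.9 and -39.6. The HFD libraries scored -54.5, -5.4 and -70.6, so HFD 2 stood apart from HFD 1 and HFD 3. On the second (19.5%) HFD+AE 3 and HFD+RE 4 scored lowest, at -68.9 and -46.7. HFD+RE 3 thus lay with HFD+AE 1 and 2, and HFD+AE 3 lay apart from them, so counts of changed genes are given with and without that pair. Whether their labels were exchanged was not tested. The levels of Igfbp1 and Pdk4, given below, went with the labels in both libraries. Both genes were singled out for a difference between the labelled types, so their levels cannot decide that question. Every value for AE and RE takes the labels as they stand. Mitochondrial rRNA genes took 2.45%, 1.76% and 3.26% of counts in HFD 1 to 3 and 0.685% to 1.71% in the exercise libraries, lower in all 6 (difference -1.49 percentage points, two-sided exact permutation test, p = 0.012, the smallest that 84 arrangements allow, adjusted p 0.048 over 4 measures). The other measures were the share of mitochondrial protein-coding genes, the share of the 50 most abundant genes and the rank correlation of level with gene length, and these gave exact p-values of 0.29, 0.69 and 0.44. The part of the rRNA difference in the results on genes was not tested.

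Few genes were called as different between the 6 exercise libraries and HFD in the main fit, which does not show that the other genes were unchanged. Of 18305 genes tested, 25 (0.137%) were called, that is, had a Benjamini-Hochberg adjusted p below 0.05: 6 rose (0.0328%) and 19 fell (0.104%). The genes that rose were Hsd3b5, Mup11, Mup9, Cyp17a1, Tgfbr3 and the pseudogene Gm8508, and those that fell included the lipid droplet genes Cidec and Cidea, the serine protease gene Cfd, the T-cell gene Themis and the chemokine gene Ccl2. An unadjusted p under 0.05 was reached by 3828 genes (20.9%), and the median log2 change over all genes was 0.02. Separation without overlap was commoner: all 6 exercise libraries lay above all 3 HFD libraries for 692 genes (3.78%) and below them for 764 (4.17%). Among the called genes, 6 of the 6 that rose and 18 of the 19 that fell were separated in this way, Gm31522 being the exception. The total was sensitive to which libraries were fitted. Leaving out HFD 1 gave 4 called genes, leaving out HFD 3 gave 5 and leaving out HFD 2 gave 731. Leaving out the pair HFD+AE 3 and HFD+RE 3 gave 133, with 20 of the 25 still called. Of the 25 calls, 21 were lost without HFD 1, 20 without HFD 3, 15 without HFD+AE 1, 17 without HFD+AE 2 and 8 without HFD+RE 4. Fitted on only the 9 high-fat libraries, without NC, 23 genes were called, of which 14 were among the 25.

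Taken by type, 9 genes (0.0492%) were called in HFD+AE against HFD and 2 (0.0109%) in HFD+RE against HFD, and both comparisons use the same HFD libraries. The 2 genes called for RE, Hsd3b5 and Themis, were also among the 9 for AE. Between HFD+RE and HFD+AE 0 genes (0%) were called by edgeR, with 1468 genes at an unadjusted p under 0.05, a smallest adjusted p of 0.52 and 32 genes called by DESeq2. Without HFD+AE 3 and HFD+RE 3, which leaves 2 libraries in each type, 4253 genes were called in AE, 5 in RE and 4170 between the types. For each of the 25 genes of the pooled comparison the adjusted p of the difference between the types lay between 0.61 and 0.99, which does not show that the types act alike.

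**Figure D1:**
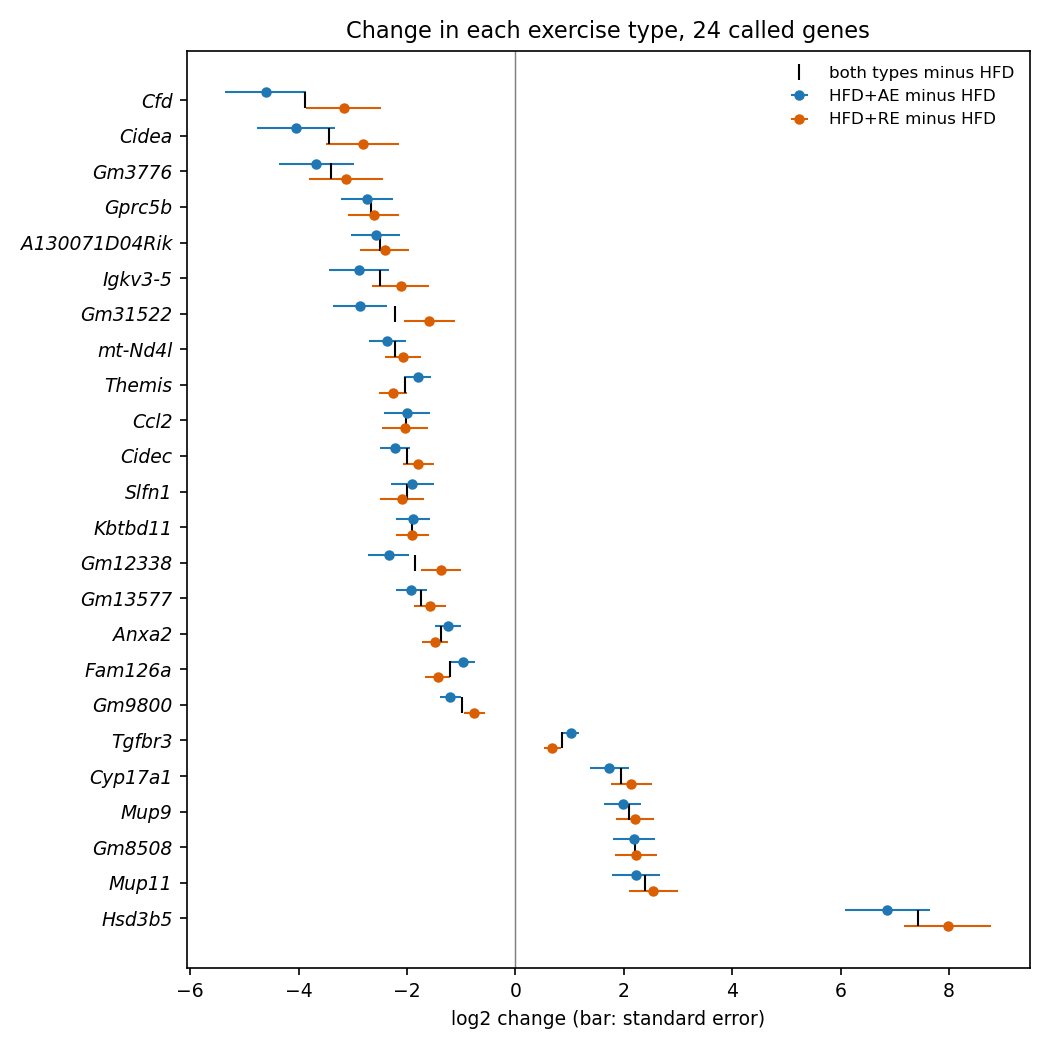
Log2 change against HFD in HFD+AE (blue) and HFD+RE (orange), with its standard error, for 24 of the 25 called genes; black ticks mark the mean of both types. Every gene shown has both types on the same side of 0, from Cfd (-4.61 in AE, -3.17 in RE) to Hsd3b5 (6.86 and 7.97). The genes were chosen by the mean of both types, and both changes use the same HFD libraries. The shared side was thus largely fixed by that choice. Gm47664 is left out because it had no count in any HFD+AE library.

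Hsd3b5 rose most. It encodes a steroid reductase that mouse liver makes mainly in adult males, and it lies at chr3:98618634-98630252 (mm10, minus strand). Its level was 0.272, 0.422 and 0.343 CPM in HFD 1 to 3, then 77, 26.6 and 17.4 CPM in HFD+AE 1 to 3 and 124, 25.2 and 112 CPM in HFD+RE 3 to 5. The lowest exercise library thus stood far above the highest sedentary one, while the exercise libraries of each type spread several-fold among themselves, and the NC libraries held 89.2 to 211 CPM. The fitted change was 7.42 (SE 0.77) on the log2 scale, 171-fold (adjusted p = 0.0021), with 6.86 (SE 0.78, adjusted p = 0.011) in AE and 7.97 (SE 0.81, adjusted p = 0.003) in RE. The difference between the types was 1.11 (SE 0.58, adjusted p = 0.61). The call held in each of the 18 alternative analyses.

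The other members of its family were not called. Of 5 Hsd3b genes tested, Hsd3b5 was the 1 called, also with RLE scaling and after removal of length and GC trends. Hsd3b2 and Hsd3b3 averaged 61.7 and 162 CPM in HFD, far above the 0.346 CPM of Hsd3b5. In NC they averaged 47.7 and 127 CPM, below the 163 CPM of Hsd3b5. Hsd3b2 and Hsd3b3 changed by 0.36 and 0.29 on the log2 scale (adjusted p 0.29 and 0.45), and Hsd3b6 by 0.77 (adjusted p = 0.45). Hsd3b4 had no count in HFD and averaged 0.104 CPM with exercise, and it was not called (adjusted p = 0.11). Genes of a family may share reads, so their single values are uncertain. The likeness of these sequences was not tested.

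The Mup genes, a tandem cluster on chromosome 4, gave 2 of the 6 genes that rose, Mup11 and Mup9. Their promoters share a long stretch of sequence. The sequences below are from RefSeq (GRCm38.p6, from 250 bases before to 50 after its gene start, minus strand), at chr4:60421903-60422202 for Mup9 and chr4:60662346-60662645 for Mup11; capitals mark the longest run that both share without a mismatch, 169 bases. The start used for Mup11 differs from the gene start of the count table.
Mup9: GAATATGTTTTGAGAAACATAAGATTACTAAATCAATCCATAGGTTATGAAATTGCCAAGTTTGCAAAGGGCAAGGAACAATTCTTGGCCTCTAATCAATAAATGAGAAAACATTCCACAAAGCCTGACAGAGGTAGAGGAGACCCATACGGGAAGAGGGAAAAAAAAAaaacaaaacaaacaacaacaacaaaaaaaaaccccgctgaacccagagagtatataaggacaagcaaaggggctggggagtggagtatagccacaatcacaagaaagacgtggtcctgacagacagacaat
Mup11: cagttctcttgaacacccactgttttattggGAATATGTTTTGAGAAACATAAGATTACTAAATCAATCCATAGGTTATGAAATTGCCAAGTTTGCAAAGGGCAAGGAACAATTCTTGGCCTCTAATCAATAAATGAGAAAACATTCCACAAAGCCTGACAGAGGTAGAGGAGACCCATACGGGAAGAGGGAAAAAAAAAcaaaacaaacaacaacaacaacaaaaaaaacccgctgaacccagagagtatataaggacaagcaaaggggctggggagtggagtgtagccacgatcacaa
The marked run lies before the gene start of Mup9, and the transcripts themselves were not compared. Where transcripts of copies are alike, their reads may be divided in a way the counting does not record.

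Mup9 stood at 1.15, 1.82 and 0.901 CPM in HFD 1 to 3, at 6.36, 4.98 and 3.77 CPM in HFD+AE 1 to 3 and at 7.96, 4.27 and 5.49 CPM in HFD+RE 3 to 5. Mup11 was far more abundant, at 29.6, 106 and 30.7 CPM in HFD, 308, 223 and 250 CPM in HFD+AE and 363, 198 and 408 CPM in HFD+RE. For both genes every exercise library was above every HFD library, and HFD 2 was the highest of the sedentary ones. Mup9 rose by 2.09 (SE 0.32, adjusted p = 0.027), with 1.98 (SE 0.34) in AE and 2.21 (SE 0.35) in RE. Mup11 rose by 2.39 (SE 0.42, adjusted p = 0.046), with 2.23 (SE 0.44) in AE and 2.54 (SE 0.45) in RE. The difference between the types was 0.23 (SE 0.32, adjusted p = 0.81) for Mup9 and 0.31 (SE 0.42, adjusted p = 0.8) for Mup11. Without HFD 2 the increase of Mup11 was 3.27 (adjusted p = 0.0036). The call of Mup9 was held in 14 of 18 alternatives and that of Mup11 in 9. Both were lost on leaving out HFD 1, HFD 3, HFD+AE 1 or HFD+AE 2, and that of Mup11 also without HFD+RE 3, without HFD+AE 3 and HFD+RE 3 together, and with only the 9 high-fat libraries.

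Across the family, 2 of 20 Mups tested were called, against 0.137% of all genes, and 4 were above HFD in all 6 exercise libraries, against 3.78%. Of the 20, 18 had a positive log2 change and the median was 1.17. Mup20 and Mup8 had negative changes of -0.07 and -0.33 (adjusted p 0.89 and 0.87), and after removal of a length trend 19 of the 20 were positive. Mup19 and Mup14 had the largest fitted changes, 3.84 and 2.84, but neither was called (adjusted p 0.26 for each). The summed level of the family was 7490, 11600 and 6300 CPM in HFD, 24200, 12900 and 8310 CPM in HFD+AE and 18200, 16300 and 25500 CPM in HFD+RE. HFD+AE 3 therefore lay below HFD 2 in the sum, although its Mup9 and Mup11 lay above.

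Cyp17a1 encodes a steroid hydroxylase and lyase of androgen synthesis and stands in the list of female-biased liver genes, where it was the 1 called member of 22. It measured 15, 10.4 and 14.1 CPM in HFD, 32.7, 61.1 and 37.4 CPM in HFD+AE and 62.2, 54.6 and 57.7 CPM in HFD+RE. The RE libraries lay close together and the AE libraries spread more widely, all above HFD. The NC libraries, at 7.83, 4.92 and 16.1 CPM, overlapped HFD and lay below every exercise library. Cyp17a1 rose by 1.94 (SE 0.33, adjusted p = 0.044), with 1.73 (SE 0.36, adjusted p = 0.057) in AE and 2.14 (SE 0.37, adjusted p = 0.092) in RE, and the types differed by 0.41 (SE 0.35, adjusted p = 0.69). Its call was held in 10 of 18 alternatives, and lost without HFD+AE 3 and HFD+RE 3 and on leaving out HFD 1, HFD 3, HFD+AE 1, HFD+AE 2, HFD+RE 3 or HFD+RE 4.

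Tgfbr3 encodes betaglycan, a co-receptor that presents TGF-beta ligands to the signalling receptors. Its libraries were tight, 7.4, 7.29 and 6.97 CPM in HFD, 14.1, 15.9 and 13.9 CPM in HFD+AE and 12.9, 11 and 10.9 CPM in HFD+RE, and NC lay at 8.22 to 9.18 CPM. Each exercise library exceeded every HFD and NC library. The increase was 0.85 (SE 0.14, adjusted p = 0.031), 1.02 (SE 0.16, adjusted p = 0.047) in AE and 0.68 (SE 0.16, adjusted p = 0.27) in RE, with a difference between the types of -0.33 (SE 0.15, adjusted p = 0.61). The call was held in 10 of 18 alternatives. It was lost with only the 9 high-fat libraries and on leaving out HFD 1, HFD 3, HFD+AE 1, HFD+AE 2 or HFD+RE 4, while the change stayed between 0.69 and 0.91 over the alternatives. Of 5 TGF-beta receptor genes tested it was the 1 called. Tgfbr1, Tgfbr2, Acvrl1 and Eng changed by 0.27, 0.08, 0.18 and 0.51 (adjusted p 0.43, 0.78, 0.67 and 0.11). Markers of endothelial cells had a summed level of 177 to 283 CPM in HFD, 348 to 553 CPM in HFD+AE and 163 to 408 CPM in HFD+RE, none of the 14 markers was called (median log2 change 0.69), and their part in the Tgfbr3 result was not tested.

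**Figure D2:**
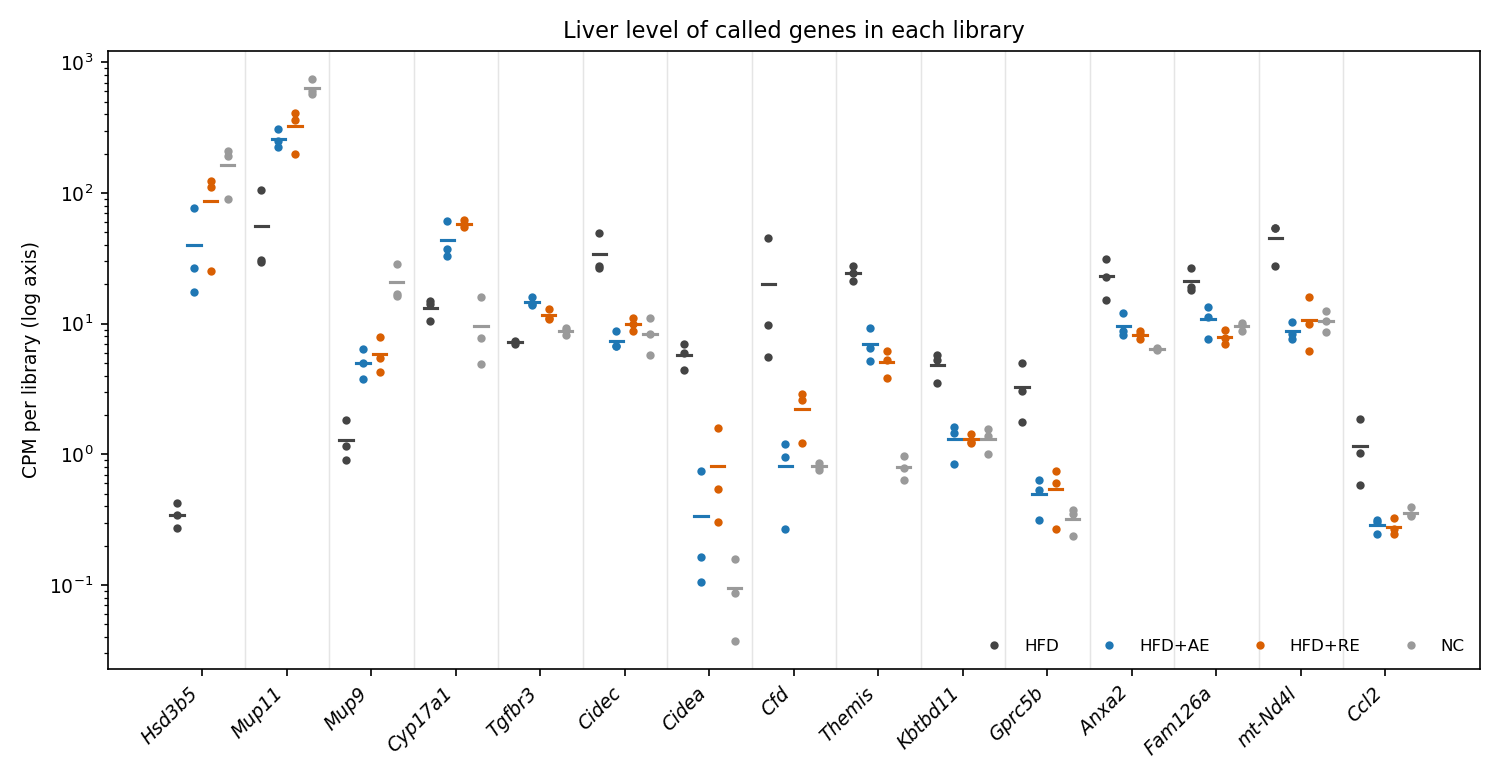
CPM on a log axis in each library of HFD, HFD+AE, HFD+RE and NC for 15 called genes; points are libraries and short lines group means. Hsd3b5 runs from at most 0.422 CPM in HFD to at least 17.4 CPM in the exercise libraries, and for Cyp17a1 the exercise libraries (32.7 to 62.2 CPM) lie above both HFD and NC.

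The lipid droplet genes Cidec and Cidea fell. Both proteins sit where droplets touch and help lipid pass into the larger one, and fat tissue makes far more of them than lean liver. Cidec measured 49, 26.8 and 27.4 CPM in HFD, 6.79, 6.7 and 8.71 CPM in HFD+AE and 9.95, 8.83 and 11.1 CPM in HFD+RE, with NC at 5.74 to 11.1 CPM. The exercise libraries formed a narrow band well under HFD and within the range of NC. Cidec fell by 2.00 (SE 0.23, adjusted p = 0.0036), 4.01-fold, with -2.22 (SE 0.28, adjusted p = 0.022) in AE and -1.79 (SE 0.28, adjusted p = 0.064) in RE, and the types differed by 0.43 (SE 0.27, adjusted p = 0.63). Its call held in all 18 alternative analyses.

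Cidea was scarcer, at 7.03, 5.96 and 4.41 CPM in HFD, 0.748, 0.106 and 0.165 CPM in HFD+AE and 0.303, 0.545 and 1.6 CPM in HFD+RE. All exercise libraries were lower than HFD, HFD+RE 5 being the highest of them. The decrease was -3.43 (SE 0.54, adjusted p = 0.028), 10.8-fold, with -4.05 (SE 0.72) in AE and -2.82 (SE 0.67) in RE, and the types differed by 1.23 (SE 0.69, adjusted p = 0.61). The call was held in 12 of 18 alternatives and lost with only the 9 high-fat libraries and on leaving out HFD 1, HFD 3, HFD+AE 2 or HFD+RE 4, and without HFD+AE 1 the change was -4.11 (adjusted p = 0.013). The gene overlaps B430212C06Rik on the other strand, so reads of the pair may be mixed. Cideb, the CIDE gene that hepatocytes use for lipoprotein loading, changed by 0.34 (adjusted p = 0.29).

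In the list of lipid droplet and fatty acid uptake genes, Cidea and Cidec were the 2 of 25 that fell, and the median log2 change was -0.27 against 0.02 for all genes. Mogat1, which makes diacylglycerol, was lower in all 6 exercise libraries without being called (-1.81, SE 0.39, adjusted p = 0.055). Plin4, a droplet coat protein, changed by -0.91 (adjusted p = 0.088), whereas Plin2, the main droplet coat protein of hepatocytes, changed by -0.37 (SE 0.24, adjusted p = 0.39). Plin2 measured 452 to 526 CPM in HFD and 289 to 554 CPM with exercise, so the groups overlapped. The fatty acid transporter Cd36 changed by -0.54 (SE 0.33, adjusted p = 0.36) and the adipogenic factor Pparg by -0.27 (SE 0.18, adjusted p = 0.4). By type, Cd36 changed by -0.09 in AE and -0.99 in RE, and Pparg by -0.14 in AE and -0.39 in RE.

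Cfd encodes adipsin, the complement factor D protease that fat cells secrete. Its HFD libraries scattered widely, at 9.77, 45 and 5.56 CPM, and the exercise libraries held 1.2, 0.957 and 0.268 CPM in HFD+AE and 2.87, 1.22 and 2.6 CPM in HFD+RE. Even the lowest HFD library was above the highest exercise library, and HFD 2 was the highest of all. Cfd fell by 3.89 (SE 0.55, adjusted p = 0.016), 14.8-fold, with -4.61 (SE 0.74, adjusted p = 0.052) in AE and -3.17 (SE 0.69, adjusted p = 0.24) in RE, and the types differed by 1.44 (SE 0.69, adjusted p = 0.61). HFD 2 carried much of this size: without it the change was -2.50 (adjusted p = 0.012). The call was held in 13 of 18 alternatives, and lost without HFD+AE 3 and HFD+RE 3, without HFD+AE 2 and without HFD+RE 3. It was also lost with a replicate block, and with exercise as 1 group in the 9 high-fat libraries. Cfd and Cidea are the 2 of 4 tested adipocyte markers that fell. Of the fat-cell defining markers, Lep had no count in any of the 9 libraries, and Adipoq, Plin1 and Retn reached at most 0.0824, 0.142 and 0.0889 CPM in any of them. The summed level of all 8 adipocyte markers, most of it Car3, was 3420 to 4320 CPM in HFD, 3350 to 3860 CPM in HFD+AE and 2480 to 2970 CPM in HFD+RE, and its part in the Cfd and Cidea results was not tested.

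Genes known from leukocytes were also among those that fell. Themis encodes a signalling adaptor of developing T cells. It measured 24.2, 27.6 and 21.2 CPM in HFD, 9.25, 6.52 and 5.19 CPM in HFD+AE and 6.15, 5.25 and 3.84 CPM in HFD+RE, and 0.631 to 0.973 CPM in NC. The exercise libraries thus lay between HFD and NC, with no overlap. Themis fell by 2.03 (SE 0.21, adjusted p = 0.0021), 4.08-fold, with -1.80 (SE 0.25, adjusted p = 0.038) in AE and -2.26 (SE 0.26, adjusted p = 0.0063) in RE, and the types differed by -0.46 (SE 0.25, adjusted p = 0.61).

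Themis did not follow the other T-cell genes across the HFD libraries. The summed level of 15 T and NK cell markers was 32.4, 7.51 and 61.4 CPM in HFD 1 to 3, 4.57 to 9.37 CPM in HFD+AE and 8.28 to 11.8 CPM in HFD+RE. HFD 2, with the highest Themis level, had a marker sum within the range of the exercise libraries, and Cd3e, a chain of the T-cell receptor complex, stood there at 0.467 CPM against 2.04 and 3.43 CPM in HFD 1 and 3. None of the 14 markers tested was called, with a median log2 change of -2.0 and for Cd8b1, Trbc2 and Lck changes of -3.65, -2.46 and -2.36 (adjusted p 0.055 each). Without HFD 2, 11 of the 14 fell, against 432 of all 18945 genes tested in that fit. Without HFD+AE 3 and HFD+RE 3 none of the markers was called.

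**Figure D3:**
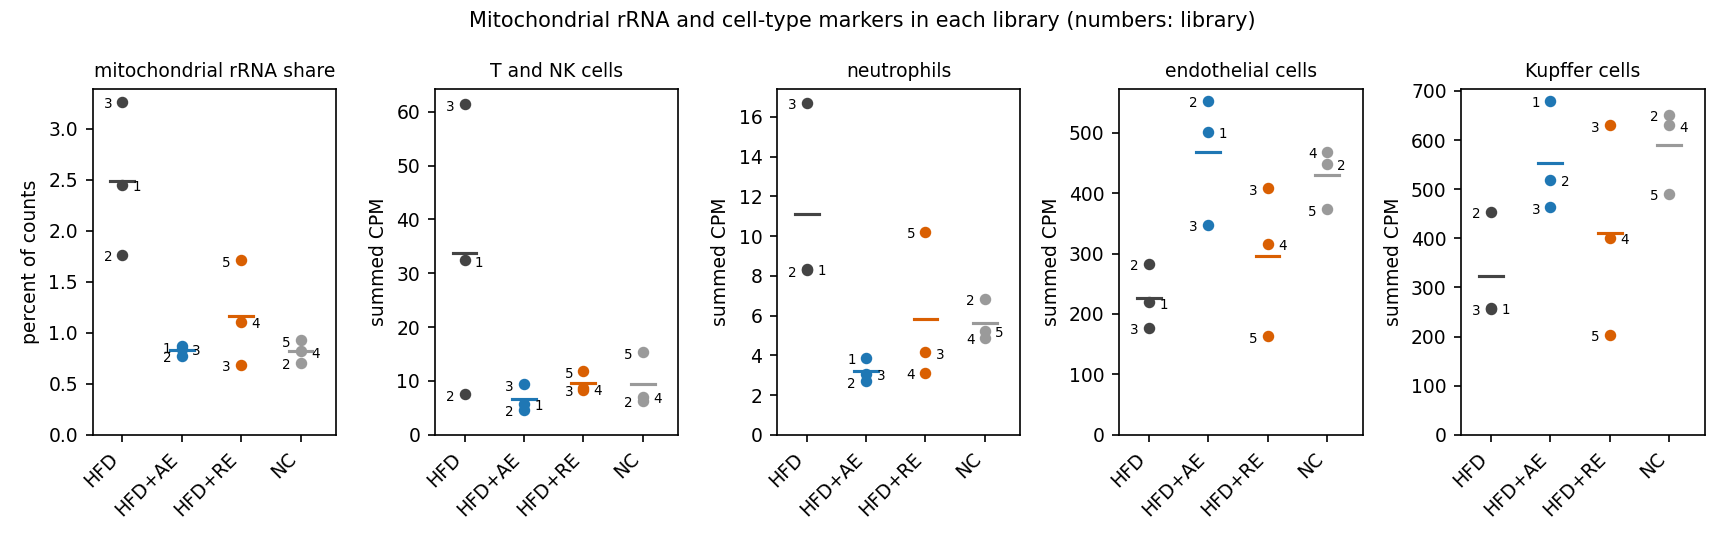
Share of counts from mitochondrial rRNA genes and summed CPM of markers of 4 cell types in each library, with the library number beside each point and a line at the group mean. HFD 2 holds 7.51 CPM of T and NK cell markers against 32.4 and 61.4 CPM in HFD 1 and 3, and its mitochondrial rRNA share, 1.76%, is the lowest of the HFD libraries.

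Ccl2, the chemokine that draws monocytes out of the blood, measured 1.87, 0.578 and 1.03 CPM in HFD, 0.312, 0.301 and 0.247 CPM in HFD+AE and 0.246, 0.327 and 0.266 CPM in HFD+RE. The 6 exercise libraries were nearly level, under the NC range of 0.335 to 0.392 CPM, and HFD 2 again came nearest to them. Ccl2 fell by 2.02 (SE 0.35, adjusted p = 0.044), with -2.0 (SE 0.43) in AE and -2.04 (SE 0.43) in RE and a difference of -0.04 (SE 0.44, adjusted p = 0.98). It was the least stable of the 25 calls, held in 7 of 18 alternative analyses and lost without HFD+AE 3 and HFD+RE 3. It was the 1 called member of 21 genes for cytokines, chemokines and adhesion, whose median log2 change was -0.71. Its receptor Ccr2 changed by -1.85 (adjusted p = 0.053), the neutrophil attractant Cxcl1 by -1.87 (adjusted p = 0.055) and Tnf by -1.25 (SE 0.51, adjusted p = 0.19).

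Of the other genes that fell, Slfn1, A130071D04Rik and Igkv3-5 belong to or overlap leukocyte genes; these and Gm31522 were named after their values were seen. Slfn1, a Schlafen gene of lymphocytes, fell by 2.00 (SE 0.33, adjusted p = 0.031), from 0.889 to 2.22 CPM in HFD to 0.254 to 0.453 CPM with exercise, with -1.90 in AE and -2.09 in RE, and each of the 6 Schlafen genes tested had a negative change. A130071D04Rik, which overlaps the leukocyte gene Ptprc on the same strand, fell by 2.50 (SE 0.36, adjusted p = 0.017), with -2.58 in AE and -2.41 in RE, whereas Ptprc itself changed by -0.85 (adjusted p = 0.24). Igkv3-5, a variable segment of the immunoglobulin kappa light chain, fell by 2.50 (SE 0.43, adjusted p = 0.044), with -2.89 in AE and -2.12 in RE, and it was the 1 called of 51 kappa variable segments (median -1.0), or 1 of 2 with RLE scaling or after removal of a length trend. Markers of B and plasma cells summed to 239 to 319 CPM in HFD, 224 to 334 CPM in HFD+AE and 260 to 298 CPM in HFD+RE, and their part in that result was not tested. Gm31522, a long non-coding RNA gene on the same stretch of chromosome 11 as Ccl2 but not overlapping it, fell by 2.23 (SE 0.38, adjusted p = 0.044), with -2.87 in AE and -1.59 in RE and with HFD+RE 5 (1.58 CPM) above HFD 2 (1.36 CPM). The calls of Slfn1, Igkv3-5 and Gm31522 were each held in 10 of 18 alternatives. All were lost with only the 9 high-fat libraries. Leaving out HFD 1, HFD 3, HFD+AE 1, HFD+AE 2 or HFD+RE 4 also lost them. The call of A130071D04Rik was held in 14. Igkv3-5 was scarce, at 0.378 to 0.915 CPM in HFD and 0.0467 to 0.208 CPM with exercise.

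Other protein-coding genes fell as well. Kbtbd11, a BTB and kelch domain protein, measured 5.29, 3.53 and 5.72 CPM in HFD and 0.85 to 1.61 CPM in the exercise libraries, and fell by 1.90 (SE 0.25, adjusted p = 0.012), with -1.89 (SE 0.31) in AE and -1.90 (SE 0.31) in RE and a difference of -0.01 (SE 0.31, adjusted p = 0.99). Gprc5b, an orphan receptor of the G protein-coupled class, went from 5.04, 3.07 and 1.77 CPM in HFD to 0.266 to 0.745 CPM and fell by 2.67 (SE 0.37, adjusted p = 0.016), with -2.73 in AE, -2.61 in RE and a difference of 0.12 (SE 0.47, adjusted p = 0.94). In both genes the exercise libraries overlapped NC, which held 1 to 1.57 CPM of Kbtbd11 and 0.237 to 0.372 CPM of Gprc5b.

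Anxa2, a calcium-dependent membrane-binding protein, measured 31.3, 15.2 and 22.6 CPM in HFD, 8.79, 8.24 and 12 CPM in HFD+AE and 8.26, 7.68 and 8.75 CPM in HFD+RE. It fell by 1.37 (SE 0.20, adjusted p = 0.017), with -1.25 (SE 0.24) in AE and -1.48 (SE 0.24) in RE, a difference of -0.23 (SE 0.24, adjusted p = 0.73). It was the 1 called of 11 annexins, of which Anxa1 changed by -1.09 (adjusted p = 0.085) and Anxa5 by -0.53 (adjusted p = 0.13). Fam126a, which encodes hyccin, a partner of a lipid kinase at the plasma membrane, measured 18.1, 26.7 and 19 CPM in HFD, 11.3, 13.5 and 7.62 CPM in HFD+AE and 6.98, 8.99 and 7.79 CPM in HFD+RE. It fell by 1.20 (SE 0.19, adjusted p = 0.028), with -0.97 (SE 0.23) in AE and -1.43 (SE 0.23) in RE, a difference of -0.45 (SE 0.23, adjusted p = 0.61). All exercise libraries were below HFD for both genes, by the narrowest margins for HFD+AE 3 in Anxa2 and HFD+AE 2 in Fam126a.

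Gm3776, which the annotation gives as protein coding and which neighbours the glutathione S-transferase gene Gsta1 on chromosome 9, measured 3, 2.04 and 8.84 CPM in HFD and 0.265 to 0.926 CPM with exercise, and fell by 3.40 (SE 0.54, adjusted p = 0.028), with -3.67 in AE and -3.13 in RE. Gsta1, a detoxifying enzyme of the alpha class, changed by -3.30 (adjusted p = 0.061), while the abundant Gsta3 changed by 0.15 (adjusted p = 0.62). The genes of this class are related, and reads may be shared among them, which was not tested. The call of Gm3776 was held in 12 of 18 alternatives and lost without HFD+AE 3 and HFD+RE 3 and on leaving out HFD 1, HFD+AE 1, HFD+AE 2 or HFD 3, the last with a change of -2.52 (adjusted p = 0.26).

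mt-Nd4l, a mitochondrial gene for a membrane subunit of complex I, measured 54.3, 27.4 and 53.6 CPM in HFD, 7.68, 8.33 and 10.3 CPM in HFD+AE and 6.22, 9.97 and 16 CPM in HFD+RE. It fell by 2.22 (SE 0.27, adjusted p = 0.006), with -2.36 (SE 0.34, adjusted p = 0.038) in AE and -2.07 (SE 0.33, adjusted p = 0.064) in RE, a difference of 0.29 (SE 0.32, adjusted p = 0.75). It was the 1 called of 13 mitochondrial protein-coding genes, whose median was -0.28, or 0.06 after removal of length and GC trends. Its neighbour mt-Nd4, which it overlaps, changed by -0.32 (adjusted p = 0.54). The mitochondrial rRNA share moved the same way across the libraries, and its part in the result was not tested.

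Pseudogenes and predicted transcripts made up the rest. Gm8508 rose by 2.21 (SE 0.36, adjusted p = 0.031), from 0.1 to 0.222 CPM in HFD to 0.685 to 0.983 CPM with exercise, with 2.19 in AE and 2.22 in RE. Gm12338, inside Pitpna, fell by 1.86 (SE 0.30), Gm13577 by 1.75 (SE 0.24) and Gm9800 by 0.98 (SE 0.16), with adjusted p of 0.031, 0.014 and 0.028. Their changes were -2.34, -1.92 and -1.20 in AE and -1.37, -1.58 and -0.76 in RE. Their calls were held in 11, 15 and 9 of 18 alternatives, and that of Gm8508 in 11. The call of Gm9800 was lost after removal of a length trend. Those of Gm12338 and Gm8508 were lost with only the 9 high-fat libraries. Reads of processed pseudogenes can come from their parent genes. Gm47664, an intronic transcript of Elmo1, held 0.311, 0.467 and 0.715 CPM in HFD, no count in any HFD+AE library and 0.0378, 0.2 and 0.0998 CPM in HFD+RE (adjusted p = 0.028). Against a floor of 3 counts over the HFD+AE group it was at least 28.1-fold lower there. The call of Gm47664 was held in 11 of 18 alternatives.

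Among 44 lists of liver functions and cell markers, 5 had a called member and 39 had none. The 39 lists held 680 tested genes, of which edgeR called 0, with 200 at an unadjusted p under 0.05 and 87 called by DESeq2. Over all 18305 genes, 3828 had an unadjusted p under 0.05 and DESeq2 called 1180. The medians of the lists can be read only beside the median of all genes, 0.02. The medians of 20 or more members furthest from it were those of male-biased genes above and of cytokines and chemokines below.

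The male-biased list had a median log2 change of 1.20, 1.11 in AE and 1.32 in RE, and 7 of 22 genes (31.8%) were above HFD in all 6 exercise libraries, against 3.78% of all genes. Those 7 were C6, Cyp4a12b, Hsd3b5, Mup1, Mup3, Slco1a1 and Susd4, so the share includes Hsd3b5 and members of the Mup family described above. Hsd3b5 was the 1 called. Slco1a1, an organic anion uptake transporter, averaged 30.7 CPM in HFD and 284 CPM with exercise (3.20, SE 0.63, adjusted p = 0.055). The complement regulator Susd4 changed by 1.25 (SE 0.24, adjusted p = 0.053), the complement component C6 by 1.13 (SE 0.29, adjusted p = 0.082) and Mup3 by 0.96 (SE 0.25, adjusted p = 0.082). Cyp7b1, an oxysterol hydroxylase, changed by 1.24 (SE 0.31, adjusted p = 0.075). The hepatocyte markers, whose sum was also higher in the exercise groups, had a median of 0.48, with 5 of 10 higher at an unadjusted p under 0.05 and none called, and their part in this list and in the other hepatocyte lists was not tested. Without HFD 2, 10 of the 22 male-biased genes rose, against 299 of all 18945 genes tested in that fit. Without HFD+AE 3 and HFD+RE 3, 4 of the 22 rose, against 40 of 18902. The female-biased list had a median of 0.27, with 0.55 in AE and -0.28 in RE.

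Lists of hepatocyte functions with no called member had medians on both sides of that of all genes. Cholesterol synthesis had a median of 0.57 (0.51 in AE, 0.65 in RE), and the reductase gene Tm7sf2 changed by 0.92 (SE 0.24, adjusted p = 0.084). The lipoprotein and sterol efflux list had a median of 0.47, with 4 of 20 genes (20%) above HFD in all exercise libraries: the sterol exporters Abcg5 and Abcg8, the lipoprotein component Apom and the hepatic lipase gene Lipc, with adjusted p of 0.1, 0.055, 0.065 and 0.055. Amino acid catabolism and the urea cycle had a median of 0.37, with 4 of 30 genes (13.3%) above, among them the methyltransferase Gnmt (1.03, SE 0.22, adjusted p = 0.055) and the urea cycle enzyme Ass1 (0.69, SE 0.19, adjusted p = 0.09). The clock list had 5 of 20 genes (25%) above HFD in all exercise libraries, Bhlhe40, Cry2, Hlf, Per1 and Tef, with a median of 0.32 and a smallest adjusted p of 0.13. Fatty acid oxidation and PPARA targets had a median of 0.22 and 0 of 30 genes separated from HFD. Nuclear-encoded subunits of oxidative phosphorylation had a median of -0.14, with 1 of 41 genes (2.44%) above HFD in all exercise libraries.

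The acute phase, heat shock, interferon-stimulated and extracellular matrix lists had no called member, and each had members below HFD in all 6 exercise libraries and 0 above it. Of 23 acute phase genes, 6 (26.1%) were below HFD in all exercise libraries against 4.17% of all genes, namely Saa1, Saa2, Saa3, Orm2, Orm3 and Lcn2, while the median of the list was 0.02. Saa3 changed by -1.65 (SE 0.30, adjusted p = 0.053) and Orm3 by -2.61 (SE 0.50, adjusted p = 0.053). Saa1, an apolipoprotein of the acute phase, measured 189, 428 and 185 CPM in HFD and 34 to 105 CPM with exercise, yet NC ran from 33.9 to 355 CPM (adjusted p = 0.088). Heat shock chaperones had a median of -0.45 with 4 of 16 (25%) below, led by Hspa1b (-2.19, SE 0.43, adjusted p = 0.055) and Hsp90aa1 (-1.15, SE 0.25, adjusted p = 0.055). Interferon-stimulated genes had a median of -0.32 with 5 of 32 (15.6%) below, and the extracellular matrix list -0.18 with 3 of 27 (11.1%) below. Col1a1, the main fibrillar collagen, measured 16.7, 7.53 and 11 CPM in HFD and 2.9 to 8.05 CPM with exercise (-1.40, SE 0.33, adjusted p = 0.066), so HFD 2 and HFD+AE 3 overlapped. Neutrophil markers had a median of -2.05 over 7 genes and a summed level of 8.27 to 16.7 CPM in HFD, 2.69 to 3.88 CPM in HFD+AE and 3.11 to 10.2 CPM in HFD+RE, which moved with these lists and whose part in them was not tested.

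**Figure D4:**
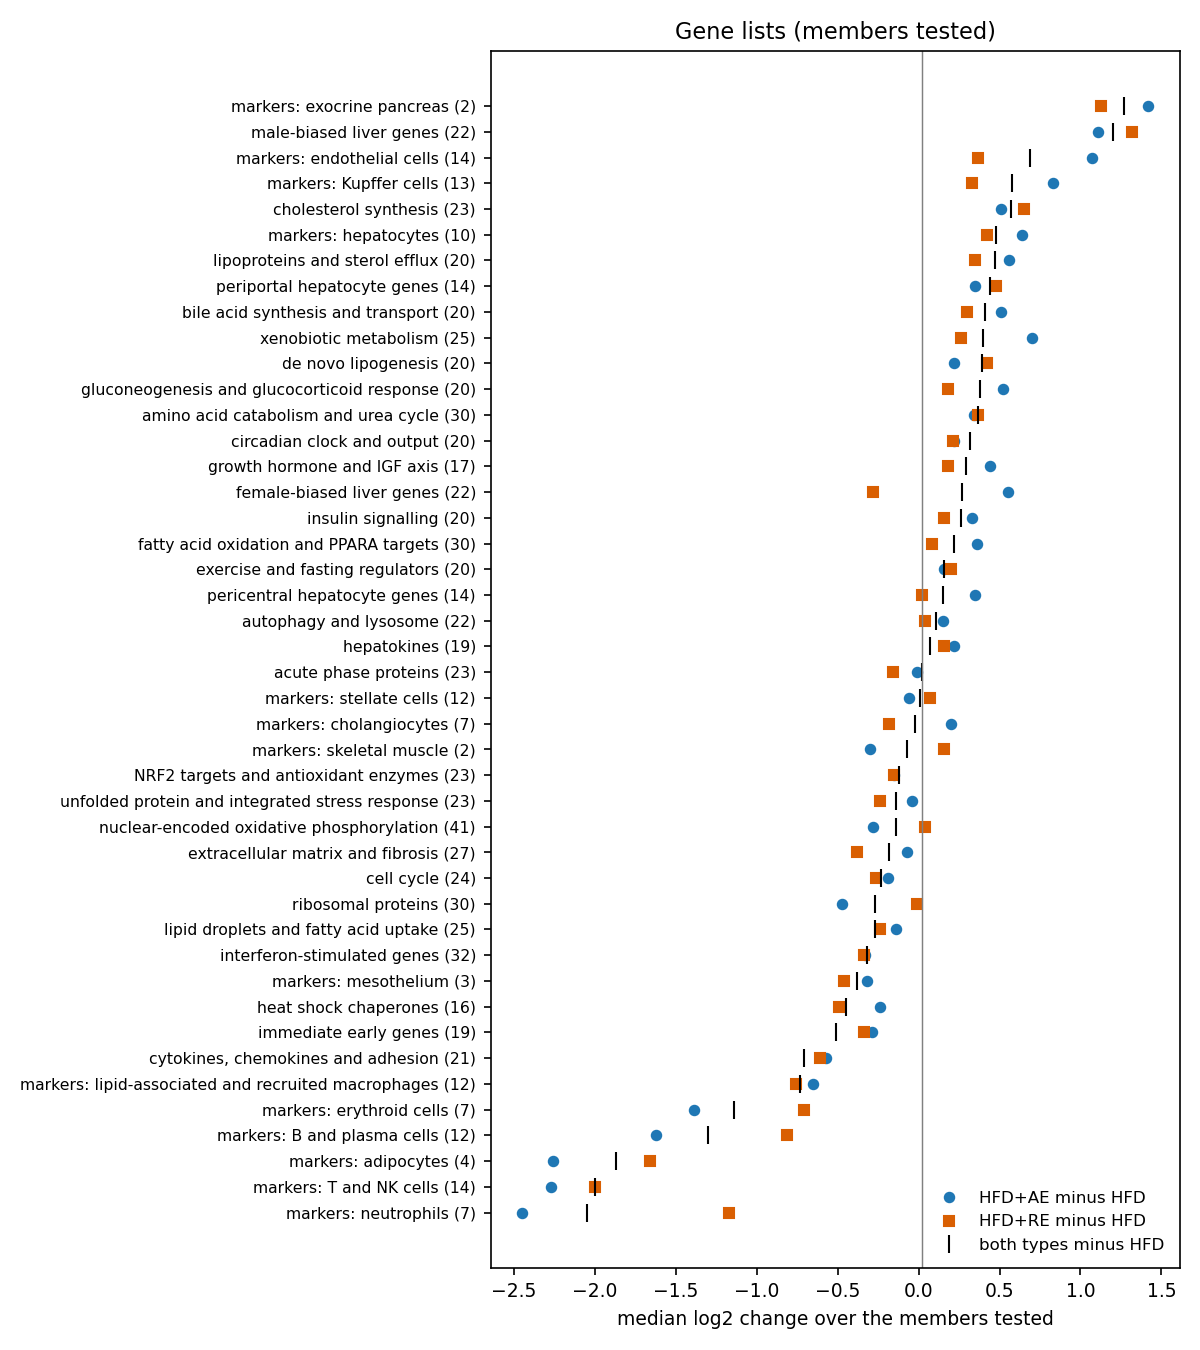
Median log2 change over the tested members of 44 gene lists (number of members in brackets), for HFD+AE, HFD+RE and both types against HFD; the grey line marks the median of all genes, 0.02. Male-biased genes lie near 1.20 and T and NK cell markers at -2.0, and female-biased genes are at 0.55 in AE and -0.28 in RE.

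A panel of 34 genes of liver metabolism, of which Cidea, Cidec and Cyp17a1 were called, showed where the types stood apart. Igfbp1, a secreted binder of insulin-like growth factors, measured 17.3, 30.4 and 6.15 CPM in HFD, 92.4, 99.6 and 66.1 CPM in HFD+AE and 19.3, 12.8 and 10.2 CPM in HFD+RE. All AE libraries were above all HFD and RE libraries, yet the difference of RE from AE (-2.61, SE 0.52) had an adjusted p of 0.52. Pdk4, which restrains glucose oxidation, measured 3.93, 7.82 and 3.12 CPM in HFD, 5.58, 6.22 and 6.67 CPM in HFD+AE and 1.74, 2.11 and 1.51 CPM in HFD+RE. RE lay below HFD and AE, with a difference from AE of -1.78 (SE 0.37, adjusted p = 0.56). Scd1, the desaturase that makes oleate, measured 1860, 1560 and 1500 CPM in HFD, 1940, 2240 and 1940 CPM in HFD+AE and 3280, 5380 and 8090 CPM in HFD+RE. All 6 exercise libraries were above HFD and the RE libraries above those of AE, with a pooled change of 1.04 (SE 0.30, adjusted p = 0.1) and a difference between the types of 1.45 (SE 0.34, adjusted p = 0.61).

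No regulator of fat oxidation in the panel was called. Ppara, the receptor that turns on fatty acid oxidation, changed by 0.20 (SE 0.15, adjusted p = 0.48), and its target Cpt1a by 0.50 (SE 0.22, adjusted p = 0.22). In AE and RE taken apart the changes were 0.37 and 0.02 for Ppara and 0.67 and 0.33 for Cpt1a. Ppargc1a, the coactivator of mitochondrial biogenesis, changed by 0.09 (SE 0.22, adjusted p = 0.84), with 0.15 in AE and 0.03 in RE. The hepatokines Fgf21 and Gdf15 changed by -0.75 (SE 0.39) and -1.02 (SE 0.53), each with an adjusted p of 0.29. By type, Fgf21 changed by -0.74 in AE and -0.76 in RE, and Gdf15 by -0.55 in AE and -1.49 in RE. Gluconeogenic Pck1 and G6pc changed by 0.31 (SE 0.19) and 0.16 (SE 0.27), lipogenic Srebf1 and Fasn by 0.59 (SE 0.33) and 0.37 (SE 0.40), and the bile acid enzymes Cyp7a1 and Cyp8b1 by 0.66 (SE 0.84) and 0.19 (SE 0.31), all with an adjusted p of 0.32 or more. For AE and then RE, Pck1 changed by 0.49 and 0.13, G6pc by 0.56 and -0.24 and Srebf1 by 0.23 and 0.96. Fasn changed by -0.09 and 0.84 (HFD+RE 5 at 864 CPM), Cyp7a1 by 0.85 and 0.47 and Cyp8b1 by 0.4 and -0.01. Igf1 changed by 0.23 (SE 0.24, adjusted p = 0.62), and the remaining Angptl4, Irs2, Arntl, Dbp, Per1 and Trem2 ranged from -0.51 for Arntl to 0.75 for Dbp, with adjusted p between 0.32 and 0.93. For AE and then RE, Igf1 changed by 0.17 and 0.28, Angptl4 by 0.27 and -0.13 and Irs2 by 0.86 and 0.21. Arntl changed by 0.11 and -1.13, Dbp by 0.26 and 1.23, Per1 by 0.56 and 0.25 and Trem2 by 0.06 and -0.23.

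**Figure D5:**
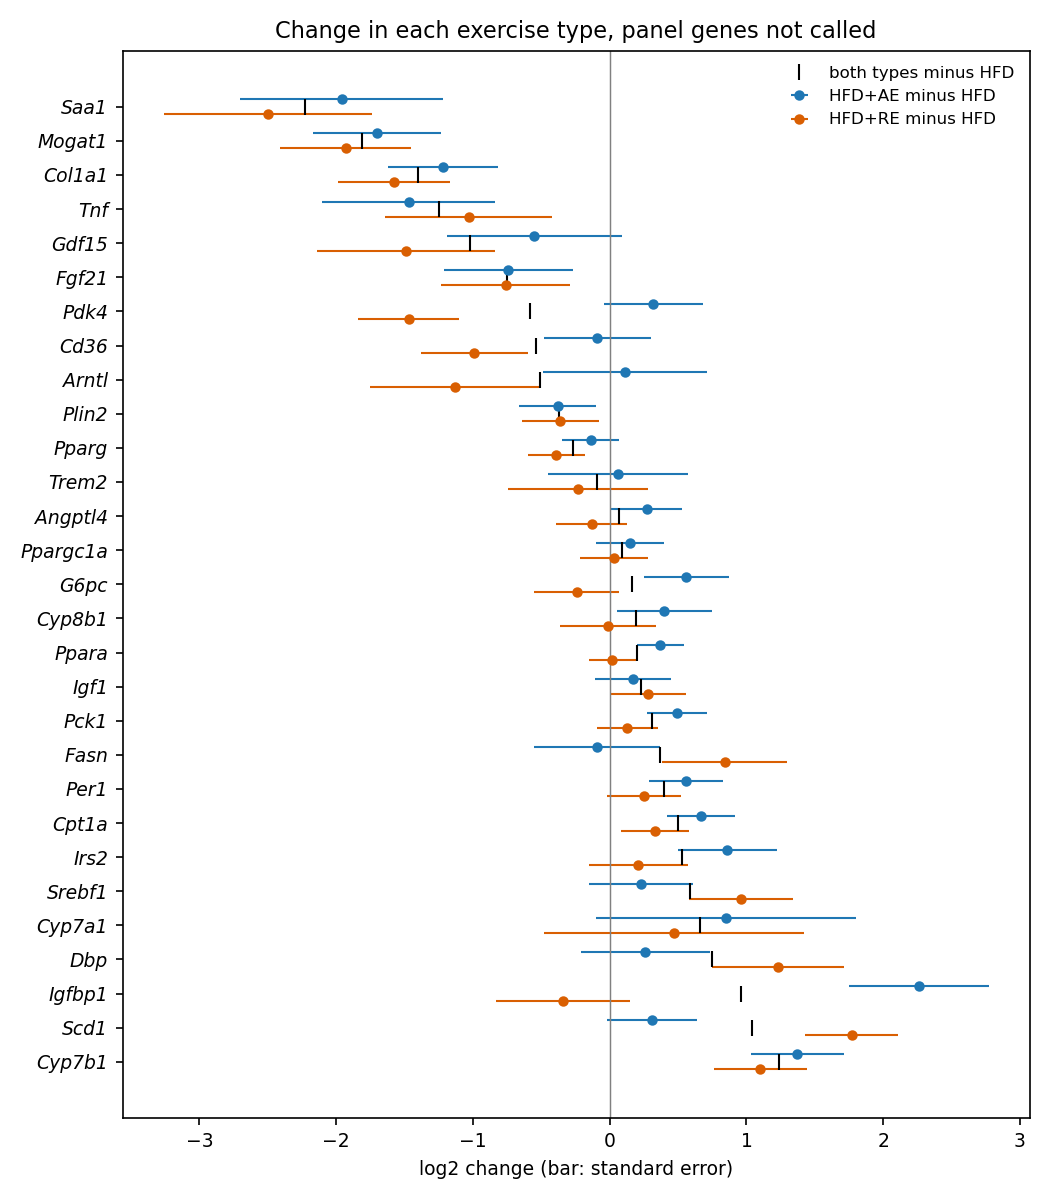
Log2 change against HFD in HFD+AE and HFD+RE, with its standard error, for 29 of the 31 panel genes that were not called; black ticks mark the mean of both types. Igfbp1 (2.26 in AE, -0.34 in RE) and Pdk4 (0.32 in AE, -1.47 in RE) are among the genes with the types on opposite sides of 0, as are G6pc, Fasn and Arntl. Cyp7b1 and Mogat1 have them on the same side.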

How the data were processed

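RNA-seq was made from whole liver, 3 libraries in each of 4 groups. The authors deposited 1 table of whole-number read counts per gene, without normalization, made with featureCounts 2.0.6 per the file headers. The submitters' processing notes name fastp, HISAT2 2.2.1, DESeq2 1.40.1 and the mm10 build. Not given in the sources used here are the strand setting, the treatment of multiply mapped reads and the annotation release, and counts do not tell isoforms apart. Libraries of a group differed beyond counting noise (chi-square over its degrees of freedom at least 70.8), so all counted as separate samples. All 12 libraries entered 1 edgeR 4.0.16 model (R 4.3.3), with a mean per group, TMM scaling, its low-count filter by group and the robust quasi-likelihood F-test; 18305 of 55291 genes remained. The exercise contrast is the mean of HFD+AE and HFD+RE minus HFD, with calls at an adjusted p (Benjamini-Hochberg) below 0.05. Log2 changes and SE are from that model, CPM are counts relative to the scaled library total, and adjusted p-values of genes come from edgeR except where DESeq2 (1.42.0) is named. The fit was tested on simulated data.

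Named were up to 12 called genes per direction with the largest change, a mean log2 CPM above 1, no overlap between groups and a symbol that is not a predicted name, up to 3 called members of each of 44 gene lists, and a panel of 34 genes, 2 of which are not reported here. The 12 called genes outside this rule, and members of lists and families that were not called and are not in the panel, were named after their values were seen. The members and lists were chosen with earlier results of these data known. Alternatives covered scaling, tool, filter, libraries fitted, length and GC trends (GC known for 98.1% of tested genes), a replicate block and each library left out, 18 in all for a named gene. Promoter sequences are from RefSeq (GRCm38.p6); 12 of the 25 called genes had one.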

Additional observations from a re-analysis of the deposited data

Results flagged for a closer look

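Of 29 sets of values over the 6 exercise libraries that were checked for a sample far from the others (the 25 called genes and 4 RNA measures), 2 held one, where chance gives about 1 in 20. Anxa2 was 12 CPM in HFD+AE 3, with the next highest exercise library at 8.79 CPM. Gm31522 was 1.58 CPM in HFD+RE 5, with the next highest at 0.763 CPM.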

How the results depend on the processing

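The 25 called genes kept their direction in each of the 18 alternatives, and Hsd3b5 and Cidec kept their call in all. With only the 9 high-fat libraries 14 of the 25 kept their call, and with exercise as 1 group in that fit 12 did. With exercise as 1 group the lost calls were Ccl2, Cfd, Cidea, Fam126a, Gm12338, Gm31522, Gm47664, Gm8508, Gm9800, Igkv3-5, Mup11, Slfn1 and Tgfbr3. Of the 31 panel genes not called, 12 of 558 values changed sign, none of them called. The number of genes called for exercise against HFD, 25, became 38 with RLE scaling, 585 without the low-count filter, 193 and 262 after removal of a length trend and of length and GC trends, 133 without HFD+AE 3 and HFD+RE 3 and 1180 with DESeq2. It ranged from 4 to 731 with 1 library left out: 4 without HFD 1, 731 without HFD 2, 5 without HFD 3, 11, 9 and 58 without HFD+AE 1, 2 and 3 and 82 without HFD+RE 5. For HFD+AE, 9 became 953 without the filter, 3 with only the 9 high-fat libraries, 94 and 412 after the trends, 4253 without HFD+AE 3 and HFD+RE 3, 2211 with DESeq2 and 0 to 1930 with 1 library left out (0 without HFD 1, 1930 without HFD+RE 3). For HFD+RE, 2 became 43 without the filter, 8 after length and GC trends, 5 without that pair, 209 with DESeq2 and 2 to 53 with 1 library left out (53 without HFD 2, 7 without HFD+RE 4). Between the types, 0 became 2 without the filter, 4170 without that pair, 32 with DESeq2 and 0 to 2 with 1 library left out (2 without HFD+RE 4). The mitochondrial rRNA difference was -1.37 without that pair (exact permutation p = 0.057). The cause of these shifts was not tested.

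Replicate numbers recur across groups. The deviations of same-numbered libraries from their group means had correlations of -0.12, 0.11 and 0.09 between HFD and HFD+AE. The correlation was -0.27 for HFD 3 and HFD+RE 3 and -0.5 for HFD+AE 3 and HFD+RE 3. With so few libraries per group these values cannot decide whether the numbers pair the samples, and the main fit used no pairing. With the replicate block 7 genes were called for exercise (6 of the 25), 2 for HFD+AE, 1 for HFD+RE and 0 between the types. The block lost 19 of the 25 calls, among them those of Themis, Cfd, Cyp17a1, Tgfbr3, Mup11, Anxa2 and Gm3776.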
